A study of Mus musculus with 24 samples.

Results

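The apolipoprotein genes described here are the 10 genes Apoa1, Apoa2, Apoa4, Apob, Apoc1, Apoc2, Apoc3, Apoe, Apoh and Apom, chosen by name as protein components of plasma lipoproteins. All 10 were found on the array, with 1 target ID each of 31483 target IDs in all, and every one had a value on all 24 arrays. The study measured total RNA on Illumina mouse bead arrays in mice of the strain C57BL/6 JAX, comparing wild-type littermates with Cirh1a+/- heterozygotes, which carry a β-Geo gene trap in Cirh1a. Cirh1a encodes cirhin, a nucleolar protein of ribosome production. There were 8 groups of 3 arrays, wild type and heterozygote, at embryonic day (E) 8.5 and E9.5 from the whole embryo and from the liver bud on E11.5 and E12.5. The labels name the yolk sac as the tissue used for genotyping. They leave it unsaid if single embryos or pools were hybridised, so p-values measure the spread between these samples.

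Lipoproteins are particles of lipid and protein that move cholesterol, triglyceride and phospholipid between cells. Apolipoproteins hold the particle together, serve as cofactors or inhibitors of lipases, and bind the receptors that take particles up. Before the liver takes over, the visceral endoderm of the yolk sac is a main source of apolipoproteins in the mouse embryo, and the fetal liver then produces most of them. In the RefSeq annotation Apoa1, Apoc3 and Apoa4 are neighbours on chromosome 9 and Apoc2, Apoc1 and Apoe on chromosome 7, while Apoa2, Apoh, Apob and Apom lie on chromosomes 1, 11, 12 and 17.

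Promoter windows from RefSeq (mouse assembly GRCm38.p6), from 250 bases before to 50 bases after a transcript start, were at hand for 8 of the 10 genes, in 11 windows. The windows of Apoa1 and Apom are shown because these genes had the largest heterozygote differences at E9.5. Those of Apoa4 and Apoh are shown because their levels ran in opposite directions between embryo and liver. The Apoa1 window is chr9:46228380-46228679 on the plus strand and the Apom window chr17:35131752-35132051 on the minus strand. The Apoa4 window is chr9:46240594-46240893 and the Apoh window chr11:108395047-108395346, both on the plus strand. Each is written 5′ to 3′, and capitals mark a match to CAAAGNNCA, a form of the site of the nuclear receptor HNF4.
Apoa1: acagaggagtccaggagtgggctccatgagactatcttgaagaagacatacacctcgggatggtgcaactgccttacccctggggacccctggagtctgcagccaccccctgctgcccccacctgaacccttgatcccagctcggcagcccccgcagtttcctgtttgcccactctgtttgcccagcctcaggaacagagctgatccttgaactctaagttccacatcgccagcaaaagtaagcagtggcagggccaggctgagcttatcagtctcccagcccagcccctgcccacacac
Apom: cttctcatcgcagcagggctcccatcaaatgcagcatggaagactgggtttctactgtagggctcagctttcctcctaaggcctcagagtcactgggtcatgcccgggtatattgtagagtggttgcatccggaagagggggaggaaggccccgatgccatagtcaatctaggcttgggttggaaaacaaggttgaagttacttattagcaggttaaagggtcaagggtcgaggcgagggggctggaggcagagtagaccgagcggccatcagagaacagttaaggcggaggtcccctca
Apoa4: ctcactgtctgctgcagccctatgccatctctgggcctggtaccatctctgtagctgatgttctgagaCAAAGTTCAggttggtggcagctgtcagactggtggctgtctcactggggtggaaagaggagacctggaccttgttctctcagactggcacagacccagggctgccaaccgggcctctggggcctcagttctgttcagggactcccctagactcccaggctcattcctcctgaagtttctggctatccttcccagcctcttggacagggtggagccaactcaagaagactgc
Apoh: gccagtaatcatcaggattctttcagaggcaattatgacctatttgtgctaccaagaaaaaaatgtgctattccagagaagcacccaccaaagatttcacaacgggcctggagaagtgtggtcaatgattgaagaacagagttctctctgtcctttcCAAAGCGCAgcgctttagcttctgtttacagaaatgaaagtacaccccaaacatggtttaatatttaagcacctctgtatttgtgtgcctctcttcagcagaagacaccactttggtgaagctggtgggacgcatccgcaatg
CAAAGNNCA was searched on both strands, together with CAAAGTCCA (which it contains), GTTAATNAT for HNF1, TTGCNNAA for C/EBP and TATAAA for the TATA box. CAAAGNNCA was found once each in the windows of Apoa4 and Apoh, where its first base lay at -182 and -93 from the start, and once on the opposite strand in that of Apob, at -103. It occurred in 6.36% of all 32851 windows. The Apoa1 and Apom windows held none of the 5 motifs, which says only that these letters are not in these windows. CAAAGTCCA and GTTAATNAT were in no window of the 8 genes and in 0.475% and 0.801% of all windows. TTGCNNAA was in 2 of the 11 windows, from 2 genes, and TATAAA in 3 of the 11, from 3 genes. The shares of all windows were 10.8% and 13.6%.

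The deposited values are log2 expression levels normalized by the authors. The E8.5 and E12.5 arrays shared 1 distribution (median 2.70), whereas those of E9.5 and E11.5 had medians of 6.63 and 6.91. Levels across stages are therefore given as the percentile of a gene among all target IDs of its array, and log2 values were compared between stages only for E12.5 against E8.5. Pearson correlations between arrays of a stage were 0.981 to 0.988 at E8.5 and 0.989 to 0.997 at the other stages. Cirh1a itself was at 51.8%, 55.0% and 52.9% of the wild-type level at E8.5, E9.5 and E12.5, with every heterozygote array below every wild-type array at these 3 stages. Its target ID had no value at E11.5, so the genotype labels could not be checked in this way there. The E8.5 arrays read low for some abundant transcripts: 222 of the 3961 target IDs with a percentile over 80 in the rest of the study were under the E8.5 median, and the same count was 0 for each other stage. A low E8.5 value can thus be a loss of signal. In the liver arrays the fetal liver proteins Afp and Ttr were at percentiles 98.6 to 99.7. The target ID of albumin, however, was at percentile 49.6 at E11.5 and had no value at E12.5.

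The apolipoproteins of high-density lipoprotein (HDL) were high in whole embryos and near the top of the array in liver. Apoa1 (target ID APOA1) encodes the main HDL protein, which activates the cholesterol-esterifying enzyme LCAT; over E8.5, E9.5, E11.5 and E12.5 its median percentile on 6 arrays was 98.9, 89.8, 99.2 and 99.7. Apoa2 (APOA2), the second HDL protein, was at 94.5, 84.98, 99.7 and 99.8 in the same order. Apom (APOM), which carries sphingosine-1-phosphate on HDL, was at 97.4, 83.9, 99.4 and 99.6. All 3 were thus lowest at E9.5, an order between separately normalized arrays that was not tested. In bulk tissue, fewer cells of a type and less RNA per cell cannot be told apart.

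The apolipoproteins of triglyceride-rich particles differed more between stages. Apob (APOB), the structural protein of very-low- and low-density lipoproteins, was at median percentiles of 88.5, 73.8, 86.0 and 94.4 at E8.5, E9.5, E11.5 and E12.5. Apoe (APOE), a ligand of lipoprotein receptors, was at 94.1, 81.3, 96.7 and 96.6. Apoc1 (APOC1), which inhibits particle uptake, was at 83.7, 65.8, 94.5 and 97.9. These 3 genes were again lowest at E9.5. Apoc2 (APOC2), the cofactor of lipoprotein lipase, was at 81.2, 61.6, 76.8 and 87.8. Apoc3 (APOC3), an inhibitor of that lipase, was at 84.8, 50.4, 69.1 and 76.1, and its 6 arrays at E9.5 ranged from 33.7 to 67.7.

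Apoa4 and Apoh ran in opposite directions. Apoa4 (APOA4), a protein of chylomicrons and HDL that the rodent intestine also makes, was at median percentiles of 86.7 and 66.6 in E8.5 and E9.5 embryos and of 31.0 and 25.8 in E11.5 and E12.5 livers. Apoh (APOH), the phospholipid-binding plasma protein beta-2-glycoprotein I, was at 28.1 and 12.9 in embryos and at 64.9 and 88.8 in livers. Every Apoa4 embryo array (59.3 or above) lay above every Apoa4 liver array (41.8 or below), and every Apoh liver array (51.7 or above) lay above every Apoh embryo array (33.4 or below). Over the 10 genes, the percentile was lower at E9.5 than at E8.5 for 10, and higher at E11.5 than at E9.5 for 9, Apoa4 being the exception. These orders lie between separately normalized arrays and were not tested. Neither they nor the lack of overlap was counted over all target IDs, so how common they are on the array is not known.

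**Figure D1:**
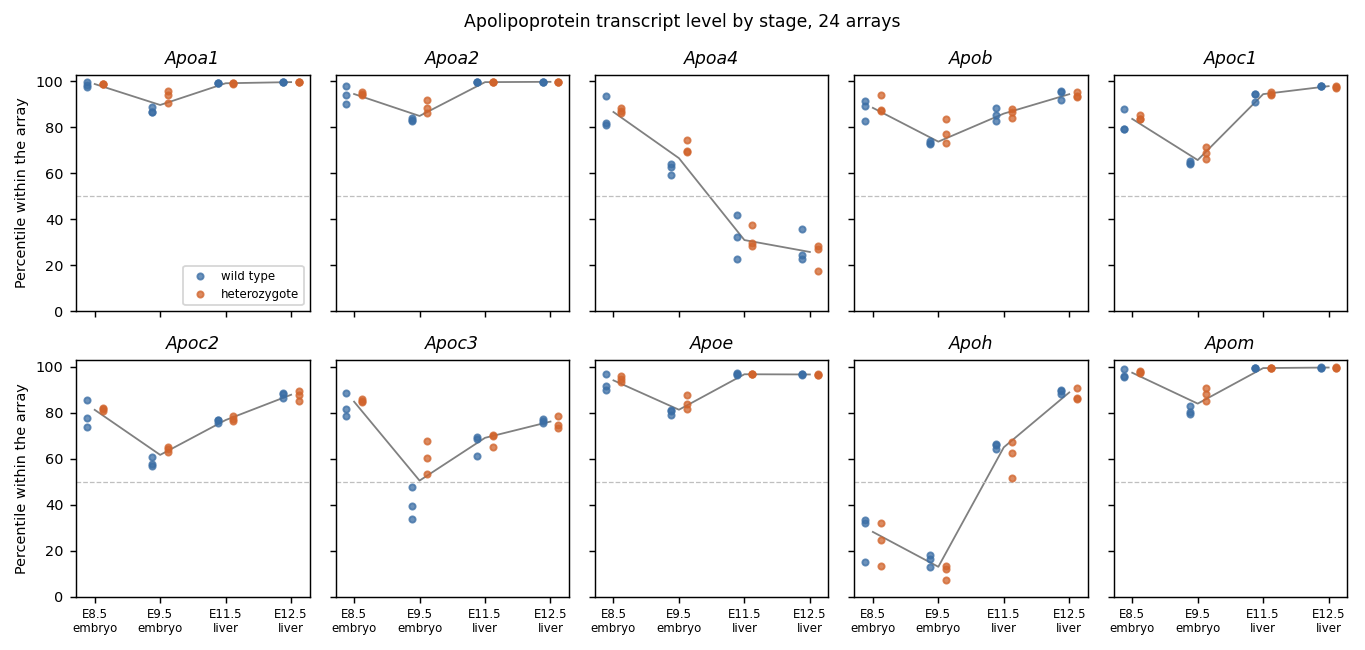
Percentile of each apolipoprotein gene among all target IDs of the same array (y axis, 0 to 100) at the 4 stages (x axis), 1 panel per gene; points are the 24 arrays, blue for wild type and orange for heterozygote, the grey line joins the stage medians and the dashed line is the array median. Apoa4 falls from a median of 86.7 at E8.5 to 25.8 at E12.5, Apoh goes from 28.1 to 88.8, and the other 8 genes dip at E9.5.

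E12.5 liver was compared with E8.5 whole embryo in a limma fit of 12 arrays with genotype as a covariate. All 10 genes passed the adjusted threshold of 0.05, 8 higher and 2 lower in liver. Apoh and Apoa4 among them entered the test only through the stage where they were high. Of 14626 tested target IDs, 29.5% passed in the higher and 44.5% in the lower direction. Stage and tissue change together here, and passing the test was the common outcome on this array. The median difference was 1.52 over the 10 genes and -0.25 over all target IDs tested.

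Apoh had 1.83, 2.22 and 2.19 in the E8.5 wild-type arrays and 1.79, 2.03 and 2.19 in the heterozygotes, against 8.87, 8.65 and 9.04 and 9.26, 8.12 and 8.22 at E12.5. Apoa4 had 10.06, 7.30 and 7.12 in wild type and 8.69, 8.17 and 8.39 in heterozygotes at E8.5, against 1.99, 2.28 and 2.03 and 1.88, 2.09 and 2.11 at E12.5. For both genes the stages did not overlap, and each passed the filter on level only through the stage where it was high. The share of all target IDs without overlap between these stages was not taken. With the low stage set at the array median of 2.70, Apoh was at least 63.6-fold higher and Apoa4 at least 48.1-fold lower in E12.5 liver than in E8.5 embryo. For Apoh this bound holds unless its E8.5 signal was lost. Apoh was also below the array median at E9.5.

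Among the HDL proteins, Apoa2 rose by 4.30 on the log2 scale (SE 0.341, adjusted p = 1.5e-07), Apom by 2.40 (SE 0.270, adjusted p = 4.3e-06) and Apoa1 by 1.51 (SE 0.301, adjusted p = 0.000602). Apoc1 rose by 4.17 (SE 0.289, adjusted p = 4.1e-08), a 17.9-fold difference with a 95% interval of 11.6 to 27.8. Apoc2 rose by 1.53 (SE 0.345) and Apob by 1.44 (SE 0.400), with adjusted p of 0.00156 and 0.00610. Apoe rose by 0.92 (SE 0.316, adjusted p = 0.0193), a call that was lost with the wild-type arrays alone (1.21, adjusted p = 0.0912). Apoc3 fell by 1.71 (SE 0.316, adjusted p = 0.000342), from 8.68, 7.23 and 6.60 in wild type and 8.14, 7.91 and 7.84 in heterozygotes to 6.15, 5.96 and 6.26 and 6.56, 5.74 and 5.47. Apoa4 and Apoc3 were the 2 genes of the 10 that were lower in liver, against 44.5% of all target IDs tested. For Apoc3 too the stages did not overlap, which was likewise not counted over all target IDs.

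Of 12 other apolipoproteins and related genes found on the array, 8 were tested between these stages, 6 of them higher and 2 lower. Apoc4, a neighbour of Apoc2, rose by 7.23 (SE 0.465). Apof, a minor HDL protein, Saa4, a constitutive HDL protein, and Apobec1, the enzyme that edits Apob mRNA, were below the array median at E8.5 and passed the filter only through liver. With E8.5 set at that median of 2.70, they were at least 238-fold, 43.7-fold and 4.59-fold higher in liver, unless their E8.5 signal was lost. Apoa5, an activator of lipoprotein lipase, was below the median in liver and passed the filter only through E8.5. With its liver level set at that median, it was at least 1.28-fold lower in liver. Of 9 tested genes for the assembly of Apob particles, 3 rose and 2 fell. Cideb, which helps load lipid onto the particle, rose by 2.56 (SE 0.317), and Mttp, the microsomal transfer protein that starts assembly, had 0.24 (SE 0.254, adjusted p = 0.415).

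Among the lipoprotein enzymes 5 of 6 tested rose and 0 fell, with Lcat at 3.74 (SE 0.274) and Lpl, lipoprotein lipase, at 1.47 (SE 0.0904). Among receptors and transporters 5 of 11 tested rose and 3 fell. Sort1 rose by 4.98 (SE 0.200), and Vldlr, below the median at E8.5, was at least 9.78-fold higher in liver unless its E8.5 signal was lost. Amn, a part of the cubilin-amnionless receptor of the visceral endoderm, fell by 5.75 (SE 0.308). Of 13 transcription factors of liver and visceral endoderm 8 rose and 3 fell, with Nr1h3 at 5.02 (SE 0.0928) and Hnf4a at 1.38 (SE 0.271). Nr1h4, below the median at E8.5, was at least 24.1-fold higher unless its E8.5 signal was lost.

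Between these stages, 4 of 6 tested markers of the visceral endoderm fell, as did 2 of the 10 apolipoprotein genes. Over all target IDs tested, 44.5% fell. Cubn among the markers and Apoa4 among the 10 genes entered the test only through E8.5, where they were high. Amn, Dab2 (-4.31, SE 0.198), Fxyd2 (-4.23, SE 0.376) and Cubn fell, the last by at least 28.8-fold with its liver level, below the median, set at the median. Afp, which the liver also makes, rose by 3.13 (SE 0.322), and Ttr had 0.46 (SE 0.200, adjusted p = 0.0550). In order of stage, the median percentile of Amn was 98.6, 80.2, 66.7 and 77.6, and that of Cubn was 81.0, 62.0, 13.9 and 10.98. Of 8 hepatoblast markers tested 7 rose and 0 fell. Ahsg, below the median at E8.5, was at least 1046-fold higher in liver unless its E8.5 signal was lost. The part of either cell type in the differences of the 10 genes was not tested.

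At E9.5 the mean of the heterozygote embryos was above that of wild type for 9 of the 10 genes, by 0.31 to 1.29 on the log2 scale, but none passed the test adjusted over all target IDs. Apoa1, Apom, Apoa2 and Apoa4 had the largest differences, between 1.80- and 2.45-fold. The exception was Apoh, which was below the median of level and untested. Adjusted limma p-values were 0.146 to 0.440, and 0.00635% of 15741 target IDs were called at this stage. Unadjusted limma p was under 0.05 and positive for the 9 tested genes, against 5.20% of all target IDs tested. Apoc3 passed the filter on level only through the heterozygote arrays, since its wild-type mean of 6.42 lay below the stage median of 6.63.

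Among the HDL proteins at E9.5, Apoa1 had log2 levels of 10.21, 10.17 and 10.53 in wild-type replicates 1, 2 and 3 and of 12.17, 11.69 and 10.93 in the heterozygotes. Apom had 9.24, 9.09 and 9.61 in wild type and 10.90, 10.44 and 9.93 in heterozygotes. Apoa2 had 9.67, 9.76 and 9.61 in wild type and 11.16, 10.45 and 10.09 in heterozygotes. For these 3 genes every heterozygote array lay above every wild-type array, with heterozygote replicate 1 the highest and replicate 3 the nearest to wild type. The Apoa1 difference was 1.29 (SE 0.252, adjusted p = 0.146), or 2.45-fold with a 95% interval of 1.65 to 3.62. The Apom difference was 1.11 (SE 0.213, adjusted p = 0.146) and that of Apoa2 0.89 (SE 0.213, adjusted p = 0.184). Without heterozygote replicate 3 these 3 genes passed the threshold, at 1.63 (adjusted p = 0.0107), 1.36 (adjusted p = 0.0315) and 1.13 (adjusted p = 0.0422) in that order, and 54 target IDs were called in all.

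Among the proteins of triglyceride-rich particles, Apoa4 had 6.97, 7.24 and 7.15 in wild-type replicates and 8.41, 7.72 and 7.78 in heterozygotes, a difference of 0.85 (SE 0.162, adjusted p = 0.146). Apoc3 had 6.39, 6.30 and 6.57 in wild type and 7.56, 7.01 and 6.73 in heterozygotes, a difference of 0.68 (SE 0.174, adjusted p = 0.205). Apob had 8.15, 8.26 and 8.37 in wild type and 9.75, 8.78 and 8.26 in heterozygotes, a difference of 0.67 (SE 0.292, adjusted p = 0.440). The groups did not overlap for Apoa4 and Apoc3, while for Apob heterozygote replicate 3 was within the wild-type range. Apoe had 9.32, 9.09 and 9.33 in wild type and 10.35, 9.75 and 9.41 in heterozygotes (difference 0.59, SE 0.193, adjusted p = 0.301). Apoc1 had 7.26, 7.25 and 7.33 in wild type and 8.04, 7.67 and 7.42 in heterozygotes (difference 0.43, SE 0.128, adjusted p = 0.264). Apoc2 had 6.90, 6.87 and 7.03 in wild type and 7.30, 7.16 and 7.26 in heterozygotes (difference 0.31, SE 0.0655, adjusted p = 0.164). In Apoe and Apoc1 heterozygote replicate 3 lay just above the highest wild-type array, and in Apoc2 the 3 heterozygote arrays lay close together.

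Apoh had 6.03, 6.09 and 6.07 in wild type and 6.01, 6.03 and 5.95 in heterozygotes, with overlapping groups at a level below the array median. Over the 10 genes, the heterozygote arrays did not overlap with wild type and lay higher for 8, all but Apob and Apoh, against 8.33% of all target IDs tested. Among these 8, Apoc3 passed the filter on level only through the heterozygote arrays, so its place in this count is no support. Heterozygote replicate 1 was the highest of the 6 arrays for 9 genes, and replicate 3 the lowest heterozygote for 8. Without heterozygote replicate 1 the differences fell to 0.26 for Apob and Apoc1, 0.34 for Apoe, 0.45 for Apoc3 and 0.59 for Apoa2, each a change of over 1.5 times. Of 5 sex-linked genes at E9.5, the Y-linked Ddx3y (0.41), Eif2s3y (0.40) and Kdm5d (0.44) were positive and Xist negative (-0.94) at an unadjusted limma p under 0.05. With the level of Y-linked transcripts as a covariate the differences of the 9 tested genes were 0.26 (Apoc2) to 1.07 (Apoa1). None was called (adjusted limma p 0.446 to 0.819). Apoe fell the most, from 0.59 to 0.33 (adjusted p = 0.794), Apom was at 0.85 and Apoa2 at 0.80. Apoa4 went from 0.85 to 0.87. These 9 genes share arrays and moved together, so their differences are not independent of each other.

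**Figure D2:**
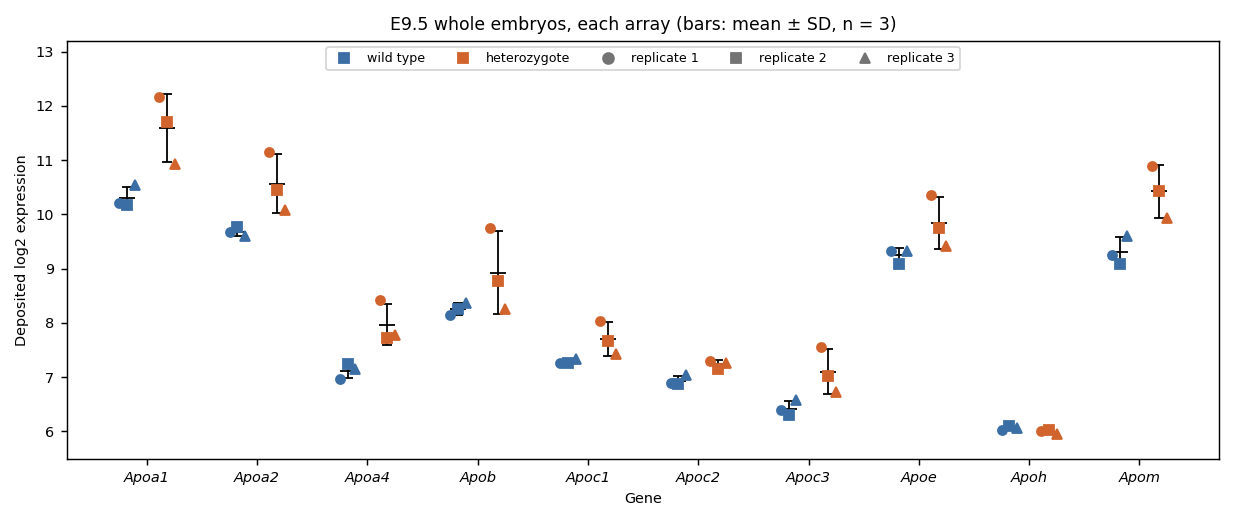
Deposited log2 expression (y axis) of the 10 apolipoprotein genes (x axis) on each of the 6 arrays of E9.5 whole embryos, with the symbol giving the replicate and black bars the mean ± SD of 3 arrays. The blue wild-type points lie below the orange heterozygote points in 8 genes, overlap for Apob and Apoh, and heterozygote replicate 1 (circle) is highest in 9 genes.

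Markers of the visceral endoderm moved with the apolipoproteins over the E9.5 arrays. The mean deviation of the 10 apolipoprotein genes from the wild-type mean was 1.10, 0.61 and 0.31 in heterozygote replicates 1, 2 and 3, and that of 8 visceral endoderm markers, all above the array median, was 1.06, 0.56 and 0.25. The summed log2 level of these markers was 72.3 to 73.3 in wild type and 74.7 to 81.2 in heterozygotes, so these sums did not overlap. Amn had a difference of 1.17 (SE 0.241, adjusted p = 0.157), Ttr, the thyroxine carrier, 0.96 (SE 0.207), Afp 0.77 (SE 0.254), Cubn 0.75 (SE 0.282) and Rhox5, a homeobox gene, 0.74 (SE 0.167). Fxyd2, a sodium pump regulator, had 0.57 (SE 0.101) and the endocytic receptor Lrp2 -0.25 (SE 0.0649). None of the 8 passed the adjusted test. Ttr and Afp are also hepatoblast markers; the 10 hepatoblast markers, 6 of them above the median, deviated by 0.59, 0.37 and 0.14 in the same arrays, with albumin at percentile 4.45. Neural markers deviated by -0.14, -0.27 and -0.18. The part of these tissues in the apolipoprotein differences was not tested.

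Of the genes that work with the apolipoproteins, none passed the adjusted test at E9.5. Of 9 tested genes for assembly of Apob particles 8 were positive, with a median of 0.09 against 0.00 over all target IDs. Soat2, which esterifies cholesterol for the particle core, had 0.67 (SE 0.154, adjusted p = 0.174), and Mttp had 0.14 (SE 0.0835, adjusted p = 0.560). Of 13 receptors and transporters 8 were positive, with Lrpap1, a chaperone of these receptors, at 0.23 (SE 0.0569). Of 11 transcription factors 10 were positive, with Hnf4a at 0.49 (SE 0.148, adjusted p = 0.264) and Foxa3 at 0.29 (SE 0.0947). Among 6 lipoprotein enzymes 3 were positive and 3 negative, with Lpl at -0.06 (SE 0.0509). The other apolipoproteins tested here, Clu, Apod and Apobr, had 0.13, -0.07 and 0.02.

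At E8.5 the SD of the wild-type arrays was larger than the difference between genotypes in each of the 10 genes. The heterozygote arrays lay closer together in some genes, as in Apoc2 with an SD of 0.12 against a difference of 0.51. Apoa1 had 13.81, 12.03 and 11.59 in wild type and 12.85, 12.43 and 12.83 in heterozygotes. Apom had 12.55, 10.86 and 10.64 in wild type and 11.81, 11.60 and 11.36 in heterozygotes. Apob had 9.40, 7.46 and 8.88 in wild type and 8.51, 8.41 and 10.11 in heterozygotes. For Apoa1 and Apom the heterozygotes lay within the wild-type range, with wild-type replicate 1 the highest array, and for Apob the highest was heterozygote replicate 3. Wild-type replicate 1 was the highest of the 6 arrays for 8 of the 10 genes and wild-type replicate 3 the lowest for 7. The groups overlapped for all 10 genes, against 6.98% of target IDs without overlap in either direction. None of the 9 genes tested was called (differences 0.10 to 0.51, each adjusted p = 1.000), and 0.0238% of 12603 target IDs were, all 3 of them sex-linked. The sex-linked Xist was higher in heterozygotes by 7.49 (SE 0.438) and the difference of the Y-linked Eif2s3y was -7.27 (SE 0.222), so at E8.5 sex and genotype cannot be told apart. The intervals were wide: for Apoa1 the 95% interval ran from 0.459-fold to 2.97-fold.

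The visceral endoderm markers had the same high array at E8.5. The mean deviation of the 10 apolipoprotein genes from the wild-type mean was 1.16, -0.46 and -0.70 in the wild-type arrays and 0.38, 0.12 and 0.39 in the heterozygotes. That of 7 visceral endoderm markers, 6 of them above the median, was 0.98, -0.32 and -0.66 in wild type and 0.07, -0.14 and 0.53 in heterozygotes, with summed log2 levels of 60.0 to 71.4 and of 63.6 to 68.3. Erythroid markers were low in heterozygote replicate 1, with a mean deviation of -4.47, an array in which the apolipoproteins lay within the range of the others apart from Apoh. Whether cell composition differed between these arrays was not tested.

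**Figure D3:**
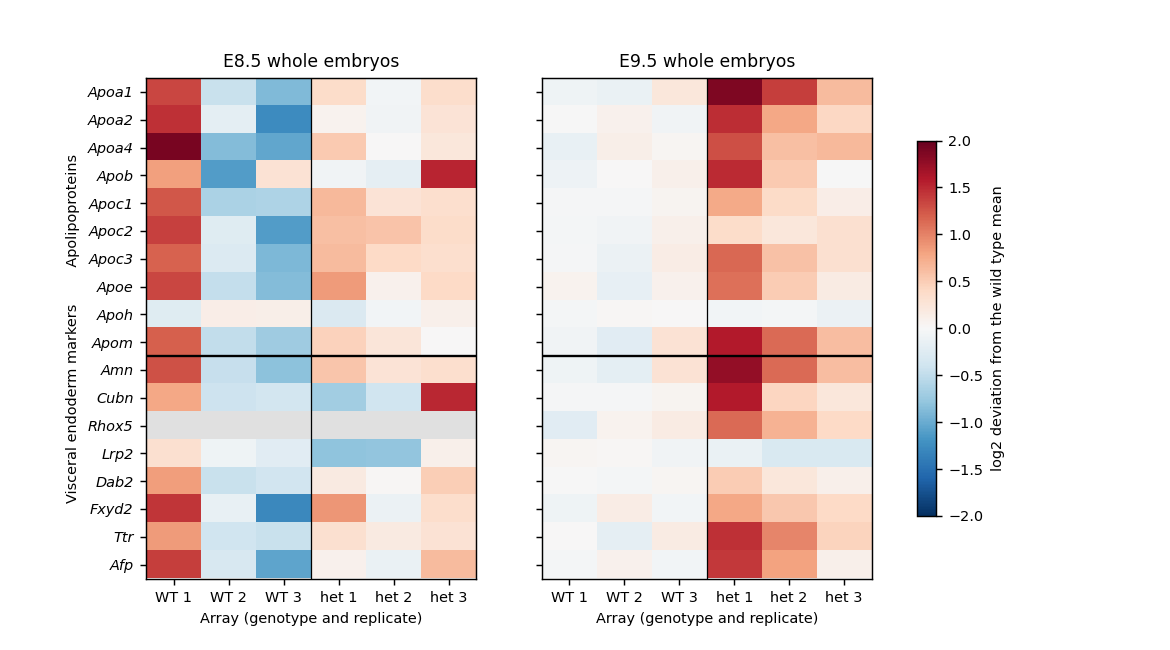
Deviation of the log2 level from the wild-type mean of the stage (colour, red higher and blue lower, limited to 2 either way) for the 10 apolipoprotein genes above the line and 8 visceral endoderm markers below it (rows), on each E8.5 and E9.5 array (columns); grey marks a gene without a value. At E8.5 wild-type replicate 1 is red in both gene groups, with a mean of 1.16 for the apolipoproteins, and at E9.5 heterozygote replicate 1 is, with a mean of 1.10.

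In the livers no apolipoprotein gene passed the adjusted test, and at E12.5 the intervals of some genes were wide. At E11.5 the 9 tested genes had differences of -0.11 to 0.29 (each adjusted p = 1.000), and at E12.5 of -0.32 to 0.07 (each adjusted p = 1.000). No target ID was called by limma at either stage (0% of 15734 and 0% of 12603, with 414 and 486 at an unadjusted p under 0.05). The groups overlapped for all 10 genes at both stages, against 8.19% of target IDs without overlap at E11.5 and 7.13% at E12.5.

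Several liver differences were bounded closely. Apoa2 had 14.36, 14.39 and 14.51 in wild type and 14.48, 14.51 and 14.49 in heterozygotes at E11.5, a ratio of 1.05 with a 95% interval of 0.934 to 1.18. Apom had 13.74, 13.83 and 13.72 in wild type and 13.85, 13.90 and 13.69 in heterozygotes, a ratio of 1.04 (0.908 to 1.18). Apoa1 had 13.48, 13.54 and 13.45 in wild type and 13.56, 13.76 and 13.41 in heterozygotes, a ratio of 1.06 (0.909 to 1.24). In these 3 genes the heterozygote arrays overlapped the wild-type range. Apoe had 11.96, 11.69 and 11.78 in wild type and 11.75, 11.92 and 11.80 in heterozygotes, a ratio of 1.01 (0.873 to 1.17). Apoc1 was less tightly bound, with 10.27, 10.98 and 11.10 in wild type and 11.06, 11.27 and 10.89 in heterozygotes and a ratio of 1.22 (0.891 to 1.67). Its wild-type replicate 1 was the lowest array.

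At E12.5 Apob and Apoh had the widest intervals of the 9 tested genes. Apob had 9.49, 10.57 and 10.86 in wild type and 9.85, 10.63 and 10.02 in heterozygotes, a ratio of 0.909 (0.465 to 1.78). Apoh had 8.87, 8.65 and 9.04 in wild type and 9.26, 8.12 and 8.22 in heterozygotes, a ratio of 0.800 (0.465 to 1.37). In Apob 1 wild-type array stood below the rest of its group, and in Apoh 1 heterozygote array stood above its group. Apoe had 11.10, 11.13 and 11.16 in wild type and 11.12, 10.96 and 10.93 in heterozygotes, a ratio of 0.915 (0.781 to 1.07). Heterozygote replicate 1 was the highest of the 6 arrays for 7 of the 10 genes. Apoa4 was below the array median at both liver stages and was not tested there.

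**Figure D4:**
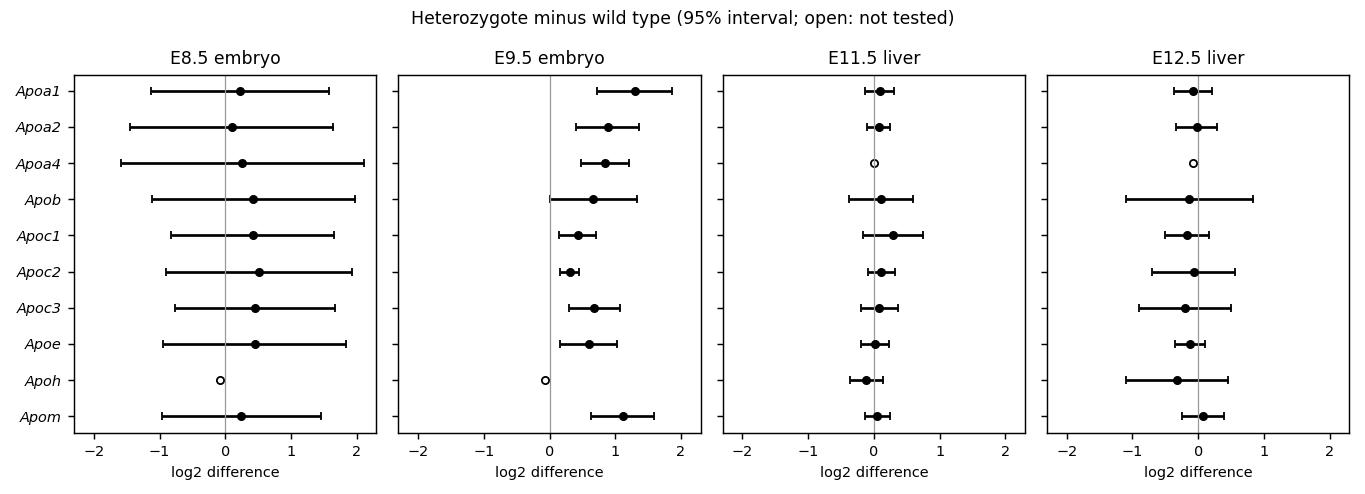
Heterozygote minus wild-type difference on the log2 scale (x axis) for each apolipoprotein gene (rows) at the 4 stages (panels), with 95% intervals from limma, not adjusted for multiple testing; open circles are genes below the median of level, which were not tested. Intervals at E9.5 lie above 0 for the 9 tested genes, those at E8.5 are wide and span 0, and those in liver span 0. Apoc3 passed the filter on level at E9.5 only through the heterozygote arrays.

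Whether the heterozygote effect differed between stages was tested in a joint fit of all 24 arrays. The effect at E9.5 minus the mean of the other 3 stages was 1.21 (SE 0.427) for Apoa1 and 0.99 (SE 0.380) for Apom, and between 0.11 and 0.84 for the other 8 genes. None was called (each adjusted p = 1.000), nor was any other target ID (0% of 16402, with 160 at an unadjusted p under 0.05). E9.5 was singled out with its results known. This fit takes 1 spread per gene over all stages, in which the wide E8.5 arrays, whose genotypes differ in sex, take part. The liver effect minus the embryo effect was between -0.75 (Apoa1) and -0.14 (Apoh) and also called for none (each adjusted p = 0.998, with 0.00610% of 16402 called).

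The average effect over the 4 stages was 0.38 for Apoa1 (SE 0.185, adjusted p = 0.931) and 0.37 for Apom (SE 0.164, adjusted p = 0.926). It was 0.22 to 0.27 for 7 genes and -0.15 for Apoh. None was called, and 0% of all target IDs were, with 879 at an unadjusted limma p under 0.05. Permuting the genotypes within stages, an exact two-sided test that also holds the E8.5 arrays, gave p = 0.0690 for Apom and p = 0.104 for Apoa1, and 0.180 to 0.325 for the rest, with no adjustment. Leaving out 1 array, E8.5 wild-type replicate 1, changed these outcomes. This array was the highest at E8.5 for 8 of the 10 genes. Without it the average was called for Apoa1 (0.55, adjusted p = 0.0395), Apoa4 (0.49, adjusted p = 0.0248) and Apom (0.52, adjusted p = 0.0317), among 51 of 16402 target IDs. Liver minus embryo was then called for the same 3 genes, at -1.09, -1.07 and -0.91 (adjusted p = 0.0364, 0.00837 and 0.0441), among 68 of 16402. At E8.5 sex and genotype cannot be told apart, and these calls share that limit.

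The genes also varied together among the arrays of a stage. After the mean of each stage was taken out, the Pearson correlation over 24 arrays between 2 of the genes other than Apoh was 0.19 to 0.96 in 36 pairs, with a median of 0.857. Apoa1 and Apom were the most alike pair (0.963), and Apob with Apoc2 the least (0.187). In the 28 pairs without Apob and Apoh it was 0.725 to 0.963. Apoh had -0.34 to 0.11 with the other 9. These arrays share the wide swings at E8.5 and E9.5 described above, so the values describe these arrays and carry no test.

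The target IDs most like the mean of the 8 genes that passed the filter at every stage were, of 8921 candidates, Soat2 (r = 0.980), Pla2g12b (0.970), Pdzk1 (0.969), Fgg (0.961) and Hnf4a (0.952), over 24 arrays after stage means were taken out. Pla2g12b encodes a secreted phospholipase-like protein, Pdzk1 a scaffold of the HDL receptor and Fgg a fibrinogen chain. Over the liver arrays alone the same correlations were lower, at 0.784, 0.712, 0.561, 0.687 and 0.558. The median percentile of Soat2 was 94.2, 68.1, 90.9 and 93.5 and that of Hnf4a 88.3, 68.3, 92.1 and 93.5 at E8.5, E9.5, E11.5 and E12.5, so both were lowest at E9.5 like the 8 genes.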

How the data were processed

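The deposited values are log2 expression per target ID, normalized by the authors; method, background correction and software are not given in the sources used here. Probe identifiers (other columns) were read from the deposited unnormalized tables only to count probes; 48 columns of signal and detection p-values there have names that match no sample label and were not used. Members were matched by symbol, or a RefSeq synonym. Fits per stage used limma 3.58.1 (lmFit, eBayes without trend, R 4.3.3) on target IDs with a mean above the stage median; the joint fit of 24 arrays required this in at least 1 stage. P-values are two-sided, adjusted by Benjamini-Hochberg over all target IDs tested, threshold 0.05. With 3 arrays per group, the number of arrays limits the precision. The exact test enumerated 160000 regroupings. The scripts were tested on simulated data. All 10 members are described; a gene of a list is named among its list's 5 smallest p or first 3 entries, and the 5 target IDs most like the members are named; some genes of the lists are not reported here. The members and lists were chosen with earlier results of these data known. Alternatives were the filter, normalization, variance model, replicate block, Y-linked covariate and leaving out arrays.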

Additional observations from a re-analysis of the deposited data

How the results depend on the processing

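Over 76 results for single apolipoprotein genes and 1377 values under other settings, 1336 kept direction and side of the threshold, 31 reversed in sign, 9 passed the threshold and 1 lost it; the causes were not tested. The E9.5 count of called target IDs was 1; it was 14 when eBayes had a trend, 0 with the Y-linked covariate and 0 to 54 when 1 array was left out, 54 without heterozygote replicate 3. With the replicate number as a replicate block it was 2, and the count for liver minus embryo was 0. No call of an apolipoprotein gene changed under the block. Correlations between same-number arrays of the 2 genotypes were -0.39 to 0.18 over the stages. At E8.5 they were 0.18, 0.13 and 0.10, above those between different numbers (-0.14 to 0.04). At E12.5 they were 0.09, 0.10 and 0.01, against -0.11 to 0.03. At E11.5 they were negative. Whether the numbers pair the samples was not tested. The liver minus embryo count of 1 was also 0 with array weights and 0 to 68 when 1 array was left out; the average count of 0 became 0 to 51, both highest without E8.5 wild-type replicate 1. The E12.5 count of 0 was 1 with the trend. Signs turned for some uncalled differences. At E11.5 that of APOE was -0.0042 after quantile normalization. At E12.5 those of APOB and APOM were 0.066 and -0.034 with the Y-linked covariate. Leaving out 1 array gave, at E8.5, -0.22 to 0.89 for APOA1, -0.54 to 0.82 for APOA2, -0.26 to 1.21 for APOA4, -0.13 to 0.84 for APOB, -0.047 to 1.20 for APOC2 and -0.11 to 0.84 for APOM. At E11.5 it gave -0.0075 to 0.17 for APOA1, -0.099 to 0.34 for APOB, -0.036 to 0.18 for APOC3 and -0.045 to 0.088 for APOE. At E12.5 it gave -0.13 to 0.039 for APOA2, -0.55 to 0.14 for APOB, -0.29 to 0.18 for APOC2, -0.52 to 0.024 for APOC3 and -0.020 to 0.16 for APOM, and for APOC2 at E9.5 minus the other stages -0.11 to 0.31. In E12.5 liver minus E8.5 embryo, APOE was 1.21 with wild-type arrays only and no longer called.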
